A study of Mus musculus with 16 samples.

Results

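The vascular endothelial growth factor (VEGF) and angiopoietin systems were followed through 10 genes in sorted mouse lung endothelial cells. The genes were the VEGF receptor genes Flt1, Kdr and Flt4, the co-receptor genes Nrp1 and Nrp2, the ligand genes Vegfa and Pgf, the angiopoietin receptor gene Tek, its partner Tie1 and the ligand gene Angpt2. They were chosen by symbol from the known membership of these systems. Each of the 10 symbols had an entry among the 17715 in the deposited expression table. All 10 were among the 14303 entries kept for testing, those with at least 1 RPKM (a read density scaled to transcript length and library size) in at least 4 of the 16 libraries. Nrp2 had no d0 library at 1 RPKM and passed that filter through the later time points. Pgf reached 1 RPKM in 3 d36 libraries and in only 3 others, so it passed through d36, where it was highest.

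Lung endothelial cells were sorted by flow cytometry from female C57BL/6N mice at 4 time points, with 4 libraries each. The labels give no age, and the antibodies of the sort are not given in the sources used here. The groups were wild-type mice (d0), mice bearing a primary tumour (d15), mice whose tumour had been resected (d22) and mice bearing metastases (d36). The tumour was Lewis lung carcinoma (LLC), a mouse carcinoma line, and its cells were implanted under the skin. The library called d36 replicate 1 here has the time point label d36, but its title names day 29. Replicates keep the numbers of their titles, namely 1 to 4 for d0, 3 to 6 for d15, 1 and 4 to 6 for d22, and 1 and 7 to 9 for d36, and values below are listed in that order. Because d0 is the control for all later times, the 3 comparisons with it share those 4 libraries.

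VEGF-A is the main growth, survival and permeability factor of endothelium, and it signals chiefly through the tyrosine kinase VEGFR2, the product of Kdr. VEGFR1, the product of Flt1, binds VEGF-A tightly, has weak kinase activity and in its soluble form acts as a decoy. Placental growth factor, the product of Pgf, binds VEGFR1 and not VEGFR2. VEGFR3, the product of Flt4, is the receptor for VEGF-C and VEGF-D and is best known from lymphatic endothelium. The neuropilins Nrp1 and Nrp2 are co-receptors for VEGF and semaphorins, with Nrp2 typical of veins and lymphatics. Tie2, the product of Tek, is the receptor of the angiopoietins. Angpt2 is stored in endothelial granules and usually opposes Tie2 signalling, while Tie1 has no well-established ligand of its own and modifies Tie2. In the alveolus, epithelium is a major source of VEGF-A, and the capillary cells called aerocytes are rich in Kdr.

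The promoters of Flt1, Kdr and Nrp2 are shown because the mean levels of Flt1 and Nrp2 were higher, and that of Kdr lower, at each later time than at d0. By mean level, Vegfa was likewise higher and Tie1 and Angpt2 lower at each later time, and their promoters are not shown. The sequences are from RefSeq, build GRCm38.p6, read 5′ to 3′ on the gene's own strand and ending before the annotated start. Capitals mark 4 short motifs found on either strand: GGAA, the core bound by ETS factors; GGGCGG, the GC box; TATAAA, the TATA box; and ACGTG, the core bound by hypoxia-inducible factors (HIF).
Flt1: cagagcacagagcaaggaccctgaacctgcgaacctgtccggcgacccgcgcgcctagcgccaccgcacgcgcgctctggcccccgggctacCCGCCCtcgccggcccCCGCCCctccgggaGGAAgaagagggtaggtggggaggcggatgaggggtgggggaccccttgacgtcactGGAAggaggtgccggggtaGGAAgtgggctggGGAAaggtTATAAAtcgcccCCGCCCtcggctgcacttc
Kdr: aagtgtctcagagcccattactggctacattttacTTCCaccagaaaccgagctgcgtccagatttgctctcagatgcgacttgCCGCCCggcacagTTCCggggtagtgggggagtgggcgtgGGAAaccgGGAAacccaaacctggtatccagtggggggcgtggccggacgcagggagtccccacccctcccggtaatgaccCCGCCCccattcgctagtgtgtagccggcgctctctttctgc
Nrp2: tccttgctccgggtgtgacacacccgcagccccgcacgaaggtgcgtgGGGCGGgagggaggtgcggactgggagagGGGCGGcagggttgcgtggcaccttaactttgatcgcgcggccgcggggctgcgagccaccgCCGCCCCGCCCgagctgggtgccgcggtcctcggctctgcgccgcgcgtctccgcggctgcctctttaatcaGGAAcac
The Flt1 window, chr5:147726012-147726261 on the minus strand, is 250 bases long and held 4 GGAA, 3 GGGCGG and 1 TATAAA. The Kdr window, chr5:75978459-75978705 on the minus strand, is 247 bases long and held 4 GGAA and 2 GGGCGG. The Nrp2 window, chr1:62703067-62703284 on the plus strand, is 218 bases long and held 1 GGAA and 4 GGGCGG, a pair of which overlap. No ACGTG was found in any of these windows. Over 32851 mouse windows of 250 bases, 93.4% held GGAA, 32.7% GGGCGG, 12.4% TATAAA and 16.6% ACGTG. Over windows of 218 bases the shares were 90.9%, 28.2%, 9.87% and 14.3%, and over windows of 247 bases 93.2%, 32.3%, 12.3% and 16.4%. The GC content was 70.4% in the Flt1 window, 61.5% in that of Kdr and 72.5% in that of Nrp2. The median over the windows of 250 bases was 52.4%. A match to these letters describes the window and is not evidence of binding.

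RPKM is scaled by transcript length, so the levels of different genes can be set side by side, though the lengths used are not given. RPKM is not scaled by GC content, which was 57.9% for Tie1 and 47.1% for Tek. The part of GC content in the order of the genes was not tested. At d0 the Tie receptors were the most abundant of the 10 transcripts. Tie1 averaged 444 ± 26.6 RPKM and Tek 289 ± 33.8 RPKM (SD, n = 4). Kdr followed at 91.5 ± 15.9 RPKM, clear of both neighbours in the order. Nrp1 at 41.5 ± 9.54, Angpt2 at 30.7 ± 6.94 and Flt1 at 27.9 ± 5.72 RPKM came next, each overlapping its neighbour in that trio. Flt4 stood alone at 6.49 ± 1.55 RPKM. Vegfa at 1.14 ± 0.565, Pgf at 0.728 ± 0.571 and Nrp2 at 0.449 ± 0.0922 RPKM formed the low end and overlapped from each to the next. Each of the 5 receptor kinase transcripts thus exceeded those of the ligands Vegfa and Pgf at d0. By d36 the order had closed at the top, where Tie1 at 276 ± 27.7 RPKM and Tek at 265 ± 29.7 RPKM overlapped. Flt1, at 51.2 ± 24 RPKM, overlapped Nrp1, at 60.9 ± 14.9 RPKM, and Angpt2, at 26.3 ± 9.17 RPKM.

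**Figure D1:**
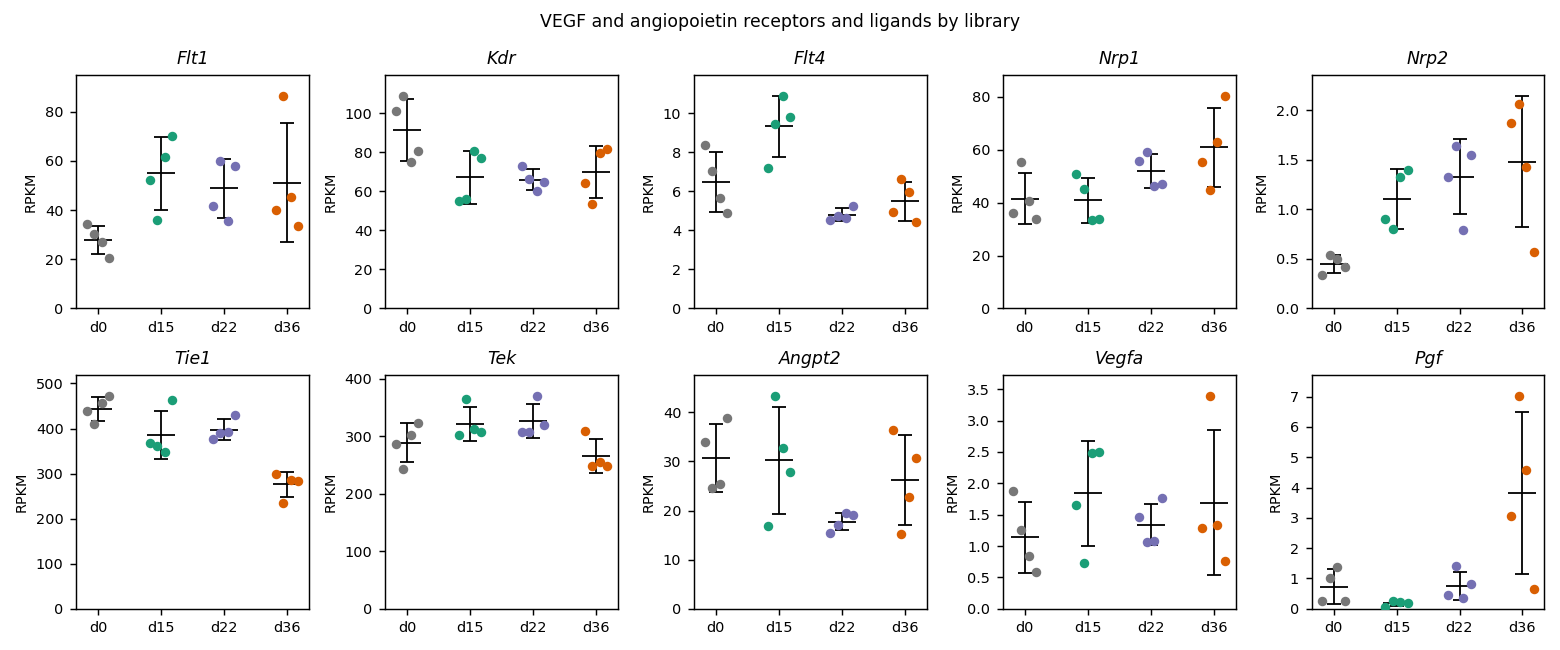
RPKM of the 10 genes in each of the 16 libraries, by time point, with points for libraries, long bars for means and short bars for 1 SD either side (n = 4). All Flt1 and Nrp2 points at d15 and d22 lie above the d0 points, and all Tie1 points at d36 lie below every other Tie1 point.

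At d36 Flt1, Nrp1, Nrp2 and Pgf rose and Tie1 fell against d0, at d22 Nrp2 rose, and at d15 none of the 10 genes passed. The test was limma on log2(RPKM + 1) with Benjamini-Hochberg adjustment over all tested entries and a threshold of 0.05. At d15 against d0, 0 of 10 passed, while 1.18% of all tested entries did, 0.608% higher and 0.573% lower. At an unadjusted p under the same threshold there were 4 of 10, with 16.5% of all entries. At d22 against d0, 1 of 10 passed, higher, where 15.2% of all entries did, 8.09% higher and 7.1% lower. At d36 against d0, 5 of 10 passed, 4 higher and 1 lower, where 24% of all entries did, 16.6% higher and 7.37% lower. Between tumour stages, 1 of 10 passed at d22 against d15, lower, where 3.06% of all entries did, 2% higher and 1.06% lower. At d36 against d22, 1 passed higher and 1 lower, where 11.8% of all entries passed, 8.73% higher and 3.07% lower. At d36 against d15, 1 passed higher and 2 lower, where 11.5% of all entries passed, 9.87% higher and 1.64% lower. Without d36 replicate 1 the count at d36 against d0 was 3, with 2551 of all entries, and without d36 replicate 9 it was 5, with 5013, against 3430 entries with all libraries. The authors' deposited table put 3 of the 10 under an adjusted p of 0.05 at d15, 5 at d22 and 4 at d36, with 7.89%, 25.6% and 22.2% of its entries there.

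The ranges of the groups gave a view that needs no model. At d15 the 4 libraries lay wholly above or below the d0 libraries for 3 genes, Flt1 and Nrp2 above and Pgf below, while 12.3% of all entries were separated in this way, 5.34% above and 6.94% below. At d22 there were 4, Flt1 and Nrp2 above and Kdr and Angpt2 below, with 26.5% of all entries, 14.2% above and 12.3% below. At d36 there were 2, Nrp2 above and Tie1 below, with 21.4% of all entries, 13.9% above and 7.47% below. At d22 against d15 there were 2, Pgf above and Flt4 below, with 15% of all entries, 10.2% above and 4.8% below. At d36 against d22 there was 1, Tie1 below, with 13.6% of all entries, 9.49% above and 4.11% below. At d36 against d15 there were 3, Pgf above and Flt4 and Tie1 below, with 11.2% of all entries, 8.94% above and 2.31% below. In bulk libraries such as these, fewer cells of a type and less RNA per cell cannot be told apart.

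**Figure D2:**
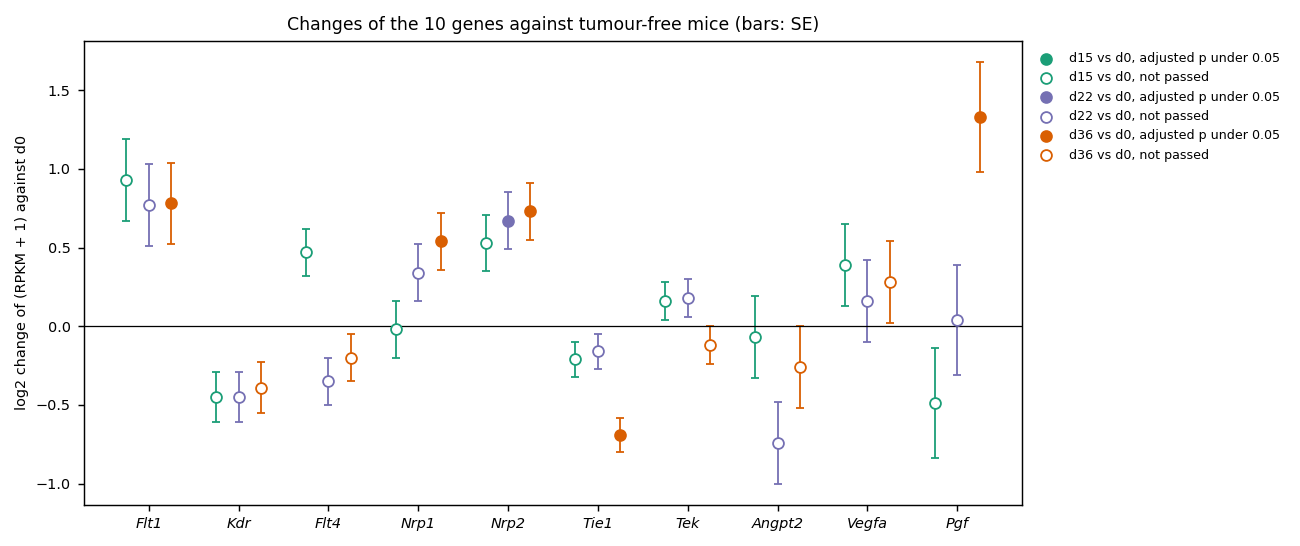
Difference of the group means from d0 on the log2(RPKM + 1) scale for each gene at d15, d22 and d36, with bars of 1 standard error from limma. Filled points passed the adjusted threshold: 0 at d15, Nrp2 at d22 and Flt1, Nrp1, Nrp2, Tie1 and Pgf at d36.

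Of the VEGF receptor genes, Flt1 had a higher mean than at d0 at every later time and passed at d36. It measured 34.2, 30.1, 26.9 and 20.6 RPKM in the d0 libraries, 52.0, 35.8, 61.7 and 69.9 RPKM at d15, 41.8, 59.9, 35.4 and 58.0 RPKM at d22 and 39.9, 86.4, 45.1 and 33.3 RPKM at d36. Every d15 and d22 library lay above every d0 library, and at d36 replicate 9 fell inside the d0 range. The means were 1.96, 1.75 and 1.83 times that of d0 at d15, d22 and d36. The differences on the log2(RPKM + 1) scale were 0.93 ± 0.26 at d15, 0.77 ± 0.26 at d22 and 0.78 ± 0.26 at d36 (SE), with limma adjusted p of 0.0893, 0.0585 and 0.042. Only the d36 difference passed, in the group with the widest spread. Before adjustment, the limma p was 0.00268 at d15, 0.0097 at d22 and 0.00941 at d36. The adjustment depends on all entries, of which 1.18%, 15.2% and 24% passed at these times. Between d36 and d15 the Flt1 difference was -0.15 ± 0.26 (adjusted p = 0.768). The call at d36 was lost without d0 replicate 2 (adjusted p = 0.0608), 3 (0.0862) or 4 (0.128), without d36 replicate 1 (0.0502), 7 (0.14) or 8 (0.07), under each of 3 other scalings between libraries (0.0607 to 0.0794), when only those groups were fitted (0.0803) and after removal of the length and GC trend (0.0922). Without d36 replicate 7 the difference was 0.49. The d22 difference passed without d22 replicate 5 (0.0458), with an equal sum of RPKM (0.0411), with quantile normalization (0.0314), with only those groups (0.0123) and with array weights (0.00846). The d15 difference passed with only those groups (0.0241) and with array weights (0.016). The authors' deposited table gives log2 fold changes of 1.0, 0.82 and 0.85 with adjusted p of 1.08e-05, 4.4e-05 and 0.0165 at d15, d22 and d36. Its header does not name the group compared with, but its signs match differences from d0. The entry is a sum over the gene at chr5:147561604-147726011 (mm10, minus strand), so the membrane and soluble forms of VEGFR1 are not separated.

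Kdr moved the other way in mean level and did not pass in any comparison of the fit to all libraries. It measured 101, 109, 75.3 and 80.9 RPKM at d0, 54.9, 56.2, 80.8 and 77.0 RPKM at d15, 73.0, 66.2, 60.0 and 64.9 RPKM at d22 and 64.1, 53.6, 79.7 and 81.9 RPKM at d36. The d22 libraries all lay below the d0 libraries, while d15 and d36 overlapped them. The log2 differences from d0 were -0.45 ± 0.16, -0.45 ± 0.16 and -0.39 ± 0.16 at d15, d22 and d36, with limma adjusted p of 0.178, 0.07 and 0.0919. The d22 difference passed with only those groups fitted (0.024), with array weights (0.0433) and after removal of the length and GC trend (0.0239). The d36 difference passed without d36 replicate 9, at -0.47 (0.0379), with an equal sum of RPKM (0.0329), with median-ratio size factors (0.0467) and with the trend removed (0.043). The authors' deposited table puts Kdr at -0.43 with an adjusted p of 0.00435 at d22. Kdr lies at chr5:75932827-75978458 on the minus strand, on the same chromosome as Flt1.

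Flt4 was highest at d15 and lower after resection. It measured 8.39, 7.05, 5.65 and 4.87 RPKM at d0, 7.20, 9.43, 10.9 and 9.83 RPKM at d15, 4.53, 4.76, 4.62 and 5.27 RPKM at d22 and 4.92, 6.62, 5.99 and 4.45 RPKM at d36. No d22 or d36 library reached the lowest d15 library. Against d15, Flt4 fell by 0.82 ± 0.15 on the log2 scale at d22 (limma adjusted p = 0.00834) and by 0.67 ± 0.15 at d36 (0.0099). Both calls held in each of the 8 fits that left out a library. The d36 call was lost when only those groups were fitted (0.0517) and with the replicate number added to the fit (0.0903). It was also lost with that and the length and GC trend removed (0.0978). Against d0, the differences were 0.47 ± 0.15 at d15 (adjusted p = 0.13), -0.35 ± 0.15 at d22 (0.133) and -0.20 ± 0.15 at d36 (0.372), of which the d15 difference passed with array weights (0.0351). The authors' deposited table gives log2 fold changes of 0.56, -0.39 and -0.25 at d15, d22 and d36. Its adjusted p were 0.0198, 0.0415 and 0.426. The gene lies at chr11:49609263-49652739 on the plus strand. Of 8 lymphatic markers listed, Lyve1, Ccl21a and Fgl2, or 3, had an entry. Their mean level was 3.01 ± 0.11 at d0, 3.97 ± 0.12 at d15, 4.00 ± 0.47 at d22 and 3.70 ± 0.56 at d36 on the log2(RPKM + 1) scale, and its part in the Flt4 values was not tested.

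Among the co-receptors, Nrp2 rose at d22 and d36. It measured 0.335, 0.543, 0.501 and 0.416 RPKM at d0, 0.898, 0.797, 1.33 and 1.40 RPKM at d15, 1.33, 1.64, 0.796 and 1.55 RPKM at d22 and 1.87, 2.06, 1.43 and 0.568 RPKM at d36. Each of the 12 later libraries lay above the highest d0 library, with d36 replicate 9 closest to it. The means were 2.46, 2.96 and 3.31 times that of d0 at d15, d22 and d36. The log2(RPKM + 1) scale compresses such differences at low levels, and there they were 0.53 ± 0.18, 0.67 ± 0.18 and 0.73 ± 0.18, with limma adjusted p of 0.153, 0.02 and 0.00818. The d36 call held in 8 of 8 fits without a library. The d22 call was lost without d0 replicate 1 (adjusted p = 0.0569) or 4 (0.0508) and without d22 replicate 4 (0.0577) or 6 (0.0641), under quantile normalization (0.0602) and after removal of the length and GC trend (0.0963). The d15 difference passed with only those groups (0.0289) and with array weights (0.0441). With no filter on low values, the adjusted p was 0.0257 at d22 and 0.00909 at d36. The authors' deposited table gives log2 fold changes of 1.28, 1.52 and 1.65, with adjusted p of 1.17e-05, 2.71e-08 and 8.95e-05. A rough estimate, from the steps of the low values and a GENCODE transcript length, was 197 to 1751 reads of Nrp2 per library. The lengths that the authors used are not given. The gene lies at chr1:62703285-62818695 on the plus strand.

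Nrp1 was present at far higher levels and, in the fit with no covariate, passed against d0 only at d36. It measured 36.2, 55.2, 40.6 and 33.9 RPKM at d0, 50.8, 45.3, 33.6 and 34 RPKM at d15, 55.8, 59.3, 46.2 and 46.9 RPKM at d22 and 55.4, 44.9, 63.0 and 80.4 RPKM at d36. The groups overlap at all times, and d36 replicate 9 was the highest of the 16. The log2 differences from d0 were -0.02 ± 0.18 at d15 (limma adjusted p = 0.982), 0.34 ± 0.18 at d22 (0.236) and 0.54 ± 0.18 at d36 (0.0432). Between d36 and d22 the difference was 0.20 ± 0.18 (0.499). With the replicate number added to the fit, the d22 difference from d0 passed, at 0.72 (0.0076). The call at d36 was lost without d0 replicate 1 (0.101), 3 (0.0858) or 4 (0.128) and without d36 replicate 1 (0.0641), 8 (0.095) or 9 (0.0948), under each of 3 other scalings (0.0521 to 0.123), with only those groups (0.0928) and after removal of the length and GC trend (0.0634). The authors' deposited table gives 0.54 with an adjusted p of 0.0653. Nrp1 lies at chr8:128358604-128503363 on the plus strand and shares 80 exon bases with the microRNA gene Mir1903.

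Of the ligands, Pgf was lowest at d15 and highest at d36. It measured 0.247, 1.03, 1.38 and 0.251 RPKM at d0, 0.0546, 0.247, 0.218 and 0.202 RPKM at d15, 0.453, 1.40, 0.344 and 0.809 RPKM at d22 and 3.05, 7.02, 4.58 and 0.662 RPKM at d36. In d36 replicates 1, 7 and 8 the level was above all other libraries, while replicate 9 was within the d0 range. The highest d15 library lay just under the lowest d0 library. By the same rough estimate as for Nrp2, the lowest d15 library held about 9 reads. The d36 mean was 5.26 times that of d0 and 21.2 times that of d15. Against d0 the log2 difference at d36 was 1.33 ± 0.35 (limma adjusted p = 0.0121), against d15 it was 1.82 ± 0.35 (0.00345), and both calls held in 8 of 8 fits without a library. The call against d0 was lost when only those groups were fitted (0.0671). Because Pgf entered the test through d36, its calls there are limited by that filter, and with no filter the adjusted p was 0.0151 against d0, 0.00419 against d15 and 0.0276 against d22. Against d22 it was 1.29 ± 0.35 (0.0249). That call was lost without d22 replicate 1 (0.063), 5 (0.0728) or 6 (0.0583) and without d36 replicate 7 (0.0837) or 8 (0.0831), and when only those groups were fitted (0.103). At d15 the log2 difference from d0 was -0.49 ± 0.35 (adjusted p = 0.528), and at d22 it was 0.04 ± 0.35 (0.954). The gene lies at chr12:85166635-85177790 on the minus strand.

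Markers of other cells moved with Pgf at d36. The list of carcinoma markers, of which 5 of 8 had an entry, had mean levels of 4.43, 3.89, 3.81 and 1.96 on the log2(RPKM + 1) scale in d36 replicates 1, 7, 8 and 9, against 0.52 to 0.95 at d0. Rhox5, a homeobox gene used here as a carcinoma marker, averaged 87 RPKM at d36 and 0.103 RPKM at d0. The pan-leukocyte list had 1.72, 2.99, 3.44 and 1.61 in the same order of d36 replicates, against 0.68 to 1.01 at d0. The fibroblast list had 2.53, 2.35, 2.51 and 0.57, against 0.32 to 0.40 at d0. Each of the 3 lists, and Pgf, was lowest in d36 replicate 9, and their part in the Pgf values was not tested. Flt1 and Nrp2 were also lowest of their d36 values in replicate 9, and Nrp1 was highest there, and the part of these cells in those values was likewise not tested. Among the genes listed at 0 in every library of a group were the leukocyte genes Itgam at d0 and Marco at d22.

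Vegfa stayed low at every time and did not pass. It measured 1.88, 1.25, 0.849 and 0.582 RPKM at d0, 1.66, 0.728, 2.48 and 2.50 RPKM at d15, 1.46, 1.07, 1.08 and 1.76 RPKM at d22 and 1.28, 3.39, 1.34 and 0.760 RPKM at d36. The groups overlap throughout, and d36 replicate 7 held the highest value. The log2 differences from d0 were 0.39 ± 0.26 at d15, 0.16 ± 0.26 at d22 and 0.28 ± 0.26 at d36, with limma adjusted p of 0.505, 0.737 and 0.47. The lung epithelium list, with 11 of 13 markers entered, had means of 3.93 ± 0.20 at d0, 4.44 ± 0.30 at d15, 3.93 ± 0.39 at d22 and 3.69 ± 0.34 at d36 on the log2(RPKM + 1) scale, and its part in the Vegfa values was not tested. Vegfa lies at chr17:46016993-46032369 on the minus strand.

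Tie1 fell at d36 while Tek, the angiopoietin receptor, did not pass in any comparison with d0. Tie1 measured 438, 410, 457 and 472 RPKM at d0, 368, 362, 349 and 464 RPKM at d15, 377, 390, 392 and 431 RPKM at d22 and 299, 235, 286 and 284 RPKM at d36. The 4 libraries at d36 lay below all 12 others. The d36 mean was 0.621 times that of d0. Against d0, Tie1 fell by 0.69 ± 0.11 on the log2 scale (limma adjusted p = 0.000603), against d22 by 0.53 ± 0.11 (0.00786) and against d15 by 0.48 ± 0.11 (0.013). The calls against d0 and d22 held in 8 of 8 fits without a library. That against d15 was lost without d15 replicate 6 (0.0506), when only those groups were fitted (0.109) and after removal of the length and GC trend (0.0681). With the replicate number added to the fit, the calls against d0 (0.123), d22 (0.553) and d15 (0.665) were all lost. The log2 differences at d15 and d22 from d0 were -0.21 ± 0.11 and -0.16 ± 0.11, with adjusted p of 0.377 and 0.374. The authors' deposited table gives -0.70 with an adjusted p of 1.98e-07 at d36. Tie1 lies at chr4:118471191-118490061 on the minus strand.

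The fall of Tie1 was set beside the other endothelial genes. The list of 12 pan-endothelial genes had a mean level of 8.07 ± 0.03 at d0, 8.11 ± 0.11 at d15, 8.01 ± 0.03 at d22 and 7.91 ± 0.14 at d36 on the log2(RPKM + 1) scale. At d36 against d0, 4 of them fell, Robo4, Icam2, Egfl7 and Esam, and Ramp2, a partner of the adrenomedullin receptor, rose, where 7.37% of all entries fell and 16.6% rose. The median change of the 12 genes from d0 was -0.01 log2 units at d15, -0.25 at d22 and -0.38 at d36. All tested entries had medians of -0.02, 0.02 and 0.04. At an unadjusted limma p under 0.05, 7 of the 12 were lower and 1 higher at d36, where 13.5% and 23.3% of all entries were. Tie1 stood 0.72 ± 0.11 log2 units above that list mean at d0, 0.47 ± 0.15 above it at d15, 0.62 ± 0.09 above it at d22 and 0.20 ± 0.21 above it at d36. The part of the carcinoma and leukocyte markers of d36 in the Tie1 values was not tested; in d36 replicate 9, where those lists were lowest, Tie1 measured 284 RPKM.

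Tek measured 287, 243, 302 and 323 RPKM at d0, 302, 365, 312 and 307 RPKM at d15, 308, 307, 370 and 320 RPKM at d22 and 310, 248, 255 and 249 RPKM at d36. Its groups overlap, and the log2 differences from d0 were 0.16 ± 0.12, 0.18 ± 0.12 and -0.12 ± 0.12 at d15, d22 and d36, with limma adjusted p of 0.557, 0.333 and 0.491. The gene lies at chr4:94739289-94874976 on the plus strand. Angpt2 had its lowest mean at d22, without passing. It measured 34, 24.5, 25.4 and 38.9 RPKM at d0, 16.9, 43.3, 32.8 and 27.8 RPKM at d15, 15.5, 17.1, 19.4 and 19.0 RPKM at d22 and 36.4, 15.3, 22.8 and 30.6 RPKM at d36. All 4 libraries at d22 lay below the d0 libraries, with a small spread among them. The log2 differences from d0 were -0.07 ± 0.26, -0.74 ± 0.26 and -0.26 ± 0.26 at d15, d22 and d36, with limma adjusted p of 0.935, 0.063 and 0.499. The d22 difference passed with only those groups fitted (0.00525) and with array weights (0.0115). The authors' deposited table gives -0.74 at d22 with an adjusted p of 1.97e-05. Angpt2 lies at chr8:18690263-18741562 on the minus strand, inside Mcph1 on the plus strand with 0 shared exon bases; whether reads were counted by strand is not given in the sources used here.

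Ratios of 2 transcripts within a library do not depend on the scale of the library, and they are given without a test. Flt1 over Kdr was 0.307 ± 0.0489 at d0 (SD, n = 4), 0.814 ± 0.142 at d15, 0.740 ± 0.184 at d22 and 0.802 ± 0.548 at d36. Each of the 12 later libraries had a ratio of at least 0.407, above the d0 maximum of 0.357. Nrp2 over Nrp1 was 0.0109 ± 0.00161 at d0, 0.029 ± 0.0131 at d15, 0.0255 ± 0.00666 at d22 and 0.0274 ± 0.0165 at d36, so Nrp2 remained the scarcer neuropilin transcript. In d36 replicate 9 it was 0.00706, below the d0 minimum of 0.00926. Tie1 over Tek was 1.55 ± 0.0972 at d0, 1.21 ± 0.221 at d15, 1.22 ± 0.122 at d22 and 1.04 ± 0.101 at d36. Angpt2 over Tek was 0.106 ± 0.0171 at d0, 0.0926 ± 0.0270 at d15, 0.0545 ± 0.00394 at d22 and 0.0980 ± 0.0282 at d36. The d22 libraries, at 0.0503 to 0.0594, lay below the d0 minimum of 0.0841. Pgf over Vegfa was 0.754 ± 0.647 at d0, 0.135 ± 0.139 at d15, 0.599 ± 0.476 at d22 and 2.18 ± 1.04 at d36.

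**Figure D3:**
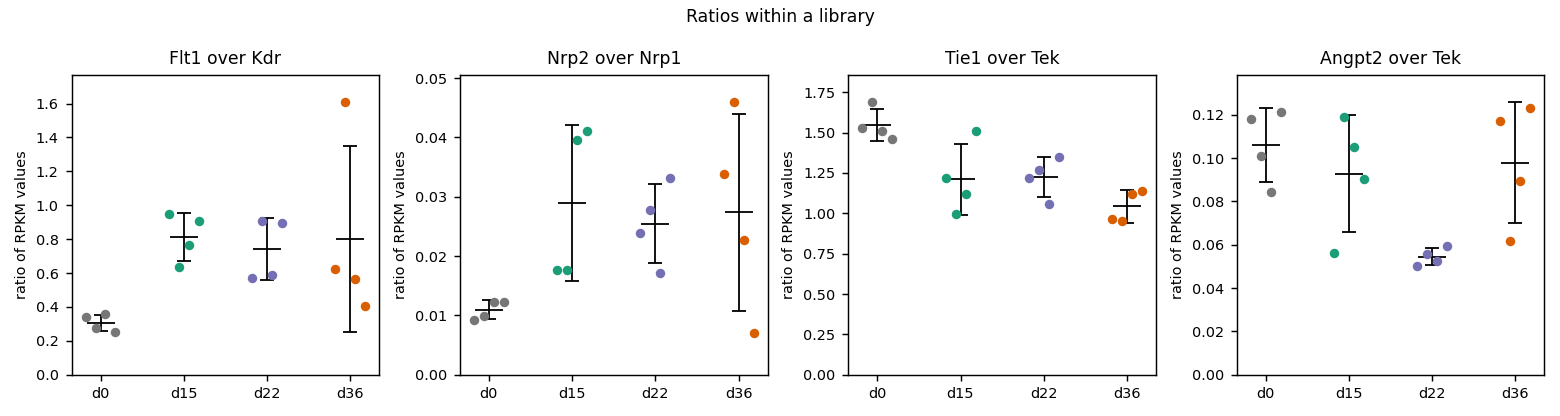
Ratios of RPKM values within each library for 4 pairs of genes, by time point, with points for libraries, long bars for means and short bars for 1 SD either side (n = 4). The Flt1 over Kdr ratio is above 0.357, the highest d0 value, in all 12 later libraries.

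Lists of 4 endothelial subtypes were set beside the receptors. Over all entries, 0.608%, 8.09% and 16.6% passed higher than d0 at d15, d22 and d36, and 0.573%, 7.1% and 7.37% lower. The aerocyte list, with 10 of 11 markers entered, averaged 5.37 ± 0.29 at d0, 4.60 ± 0.21 at d15, 4.35 ± 0.19 at d22 and 4.91 ± 0.44 at d36 on the log2(RPKM + 1) scale. Of its 9 tested genes, 2 fell at d15, 7 at d22 and 2 at d36, and 1 rose at d36. The venous list, with 10 of 11 entered, averaged 3.32 ± 0.24 at d0, 4.31 ± 0.21 at d15, 4.29 ± 0.36 at d22 and 4.16 ± 0.57 at d36. Of its 10 tested genes, 3 rose at d15, 6 at d22 and 4 at d36, and 0 fell. The general capillary list, with 10 of 10 entered and tested, averaged 7.14 ± 0.07 at d0, 7.37 ± 0.09 at d15, 7.16 ± 0.05 at d22 and 7.03 ± 0.08 at d36. Of its genes, 1 rose at d15, 0 passed at d22, where 1 was higher and 1 lower at an unadjusted p under 0.05, and at d36 1 rose and 2 fell. The arterial list, with 12 of 12 entered and tested, averaged 4.04 ± 0.19 at d0, 4.39 ± 0.20 at d15, 4.43 ± 0.18 at d22 and 4.18 ± 0.08 at d36. Of its genes, 2 rose and 1 fell at d22. At d15 and at d36 0 passed, with 3 higher at d15 and 0 in either direction at d36 at an unadjusted p under 0.05. The 14 genes of the dissociation and immediate-early list averaged 5.11 ± 0.20 at d0, 5.87 ± 0.44 at d15, 5.57 ± 0.34 at d22 and 6.84 at d36. The list mean was 8.26 in d36 replicate 7 and 5.59 in replicate 9. Of these genes, 1 rose at d15, 2 at d22 and 10 at d36, and 0 fell. The part of these lists in the receptor values was not tested.

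**Figure D4:**
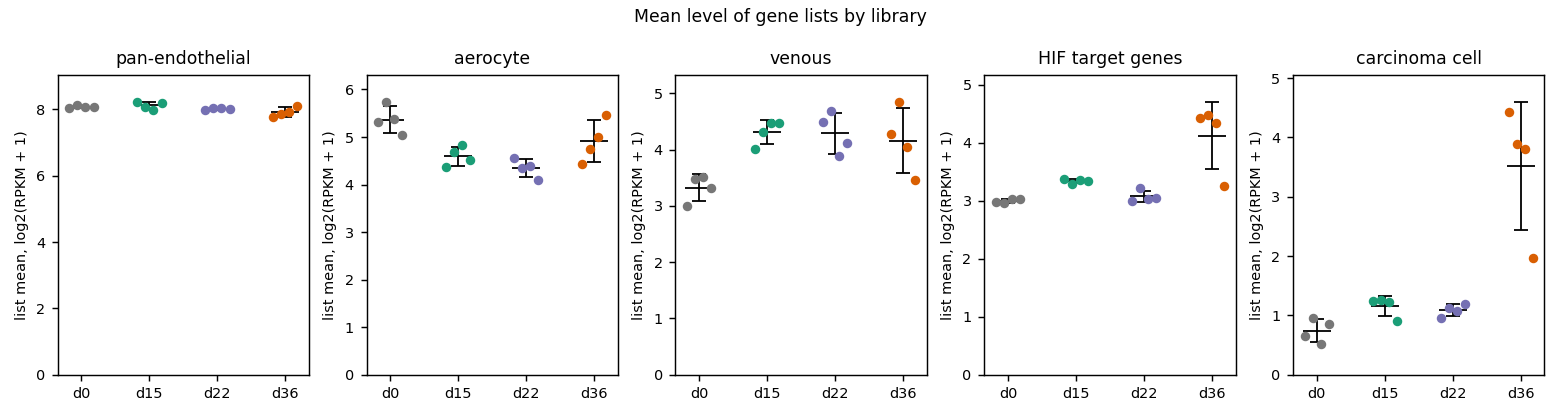
Mean level of 5 gene lists in each library, on the log2(RPKM + 1) scale, by time point, with points for libraries, long bars for means and short bars for 1 SD either side (n = 4). The pan-endothelial mean ranges from 7.76, in a d36 library, to 8.22, in a d15 library. The carcinoma mean is 4.43, 3.89, 3.81 and 1.96 in d36 replicates 1, 7, 8 and 9.

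Other genes of the pathway are given by list, and their counts stand against all tested entries. Of these, 16.5% had an unadjusted p under 0.05 at d15, 7.26% higher and 9.19% lower, and 29.8% at d22. Of the other ligands, 3 of 7 symbols had an entry and 2 were tested. Vegfc, the gene of the VEGFR3 ligand VEGF-C, rose at d22, to 22.4 ± 6.94 RPKM against 11 ± 2.76 RPKM at d0 (log2 difference 0.96 ± 0.26, limma adjusted p = 0.0199).

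Among the 20 tested co-receptors and membrane modulators, 0 passed at d15, with 5 higher and 0 lower at an unadjusted p under 0.05, where 7.26% and 9.19% of all entries were. At d22, 5 rose and 1 fell, where 8.09% and 7.1% of all entries did. At d36, 5 rose and 2 fell, where 16.6% and 7.37% did. The list medians were 0.15, 0.16 and 0.18 log2 units at d15, d22 and d36, against -0.02, 0.02 and 0.04 over all tested entries. At d22 Adam10, a sheddase, rose by 0.65 (adjusted p = 0.000891), Ptprb, the phosphatase VE-PTP that acts on Tie2, rose by 0.50 (0.0056), Sema3c, a semaphorin ligand of neuropilins, rose by 1.02 (0.00846), and Robo4, an endothelial guidance receptor, fell by 0.56 (0.00928). At d36 Cd63 rose by 2.70 (0.000464), Sdc2 by 2.12 (0.00152) and Adam10 by 0.49 (0.00208), and Robo4 fell by 0.70 (0.0013). The list mean by library was 4.85, 4.79, 4.82 and 4.47 in d36 replicates 1, 7, 8 and 9, against 4.37 to 4.43 at d0. The carcinoma list was likewise lowest in replicate 9, and its part in these values was not tested.

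Among the 31 tested signalling genes below the receptors, 0 passed at d15, with 5 higher and 0 lower at an unadjusted p under 0.05, where 7.26% and 9.19% of all entries were. At d22, 7 rose and 0 fell, where 8.09% and 7.1% of all entries did. At d36, 10 rose and 0 fell, where 16.6% and 7.37% did. The list medians were 0.06, 0.15 and 0.26 at d15, d22 and d36. Yes1, a Src-family kinase, rose by 0.97 at d22 (limma adjusted p = 2.58e-05) and by 0.77 at d36 (6.2e-05). Spry2, an inhibitor of receptor tyrosine kinase signalling, rose by 1.03 at d22 (0.00567) and by 1.58 at d36 (0.000154). Nck1 rose by 0.52 (0.00319) and Rasa1 by 0.42 (0.0174) at d22. Spred1 rose by 0.52 (0.00113) and Ptpn11 by 0.76 (0.0015) at d36. The list mean by library was 2.84, 3.09, 2.96 and 2.84 in d36 replicates 1, 7, 8 and 9, against 2.56 to 2.71 at d0. The part of the carcinoma and leukocyte markers of d36 in these values was not tested.

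Among 12 tested transcripts that VEGF raises in cultured endothelium, Apln, the gene of the peptide apelin, fell at each time. It had 20.8 ± 7.89 RPKM at d0, 5.65 ± 1.45 RPKM at d15, 6.38 ± 2.20 RPKM at d22 and 11 ± 7.06 RPKM at d36, with limma adjusted p of 0.0324, 0.00852 and 0.0496 at the 3 later times. Apln is also in the aerocyte list. In the list, 1 gene fell and 0 rose at d15, where 0.573% and 0.608% of all entries did. At d22, 2 fell and 0 rose, where 7.1% and 8.09% of all entries did. At d36, 2 rose and 1 fell, where 16.6% and 7.37% did. The list medians were 0.17, 0.03 and 0.51 at d15, d22 and d36. Dll4, a Notch ligand, fell by 0.38 at d22 (adjusted p = 0.0467). At d36, Nr4a2 rose by 1.21 (0.0211) and Egr3 by 0.67 (0.0103). Of the 14 genes in the dissociation and immediate-early list, 10 also rose at d36. The part of dissociation in the Nr4a2 and Egr3 values was not tested.

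HIF target genes passed against d0 only at d36. Of 14 tested, 0 passed at d15, where 5 were higher and 0 lower at an unadjusted p under 0.05, with 7.26% and 9.19% of all entries. The list mean at d15 was 3.29 to 3.38 by library, against 2.96 to 3.03 at d0, on the log2(RPKM + 1) scale. The median change at d15 was 0.39 log2 units, against -0.02 over all tested entries. At d22, 0 passed, with 1 higher and 1 lower at that level, where 29.8% of all entries were in either direction. At d36, 10 rose and 0 fell, where 16.6% and 7.37% of all entries did, with a median of 1.17 log2 units. Adm, the gene of adrenomedullin, averaged 20.4 ± 13.0 RPKM at d36 and 0.941 ± 0.176 RPKM at d0 (adjusted p = 0.000474). Bnip3 rose by 1.32 (6.6e-05), Ldha by 1.65 (0.000761) and Pgk1 by 1.06 (0.0015). The list mean by library was 4.42, 4.47, 4.34 and 3.25 in d36 replicates 1, 7, 8 and 9. The carcinoma list was likewise lowest in replicate 9, and its part in the HIF values was not tested. Vegfa, which HIF can induce, did not pass at d36.

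Among 17 tested transcription factors of endothelial receptor genes, 0 passed at d15, with 7 higher and 1 lower at an unadjusted p under 0.05, where 7.26% and 9.19% of all entries were. At d22, 5 rose and 1 fell, where 8.09% and 7.1% of all entries did. At d36, 5 rose and 0 fell, where 16.6% and 7.37% did. Hif1a rose by 0.98 at d22 (limma adjusted p = 0.000385) and by 1.54 at d36 (3.88e-06). The ETS factor Fli1 rose by 0.76 (0.0025) at d22 and 0.58 (0.00686) at d36. Mef2c rose by 0.53 (0.00212) and Sox7 by 0.65 (0.00294) at d22, and Mef2c by 0.38 (0.00813) at d36. Nr2f2, the venous factor COUP-TFII, rose by 1.04 at d36 (0.0015). Over this list the median change from d0 was 0.33 at d15, 0.27 at d22 and 0.23 at d36. The part of the carcinoma, leukocyte and fibroblast markers of d36 in the d36 values was not tested.

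Within time points, some of the 10 genes varied together from library to library. Across the 16 libraries, as deviations from the group means, Pearson's r was 0.89 for Flt1 with Vegfa, 0.79 for Nrp2 with Pgf, 0.71 for Flt1 with Nrp2 and 0.70 for Flt4 with Vegfa. It was 0.66 for Tek with Angpt2 and -0.58 for Flt1 with Angpt2. These values are a description over libraries that also differ in depth and in the markers above. The genes named next were picked as the closest of 8383 candidates, so high values follow in part from that choice. No background for them was computed. By the same measure, the closest were Zbtb7a, Map2k2 and Rusc2 for Flt1, each at 0.96. For Nrp2 they were Fut8 at 0.94, Slc1a5 at 0.92 and Nfkbiz at 0.89. For Pgf they were Serpine2 at 0.93, Tnfaip8 at 0.91 and Lefty1 at 0.89. For Nrp1 they were Zmym2 at 0.97, Ppp3ca at 0.92 and Sh3rf1 at 0.92. For Tie1 no gene came closer than Gm6158 at 0.77, with Fermt2 at 0.76 and Adora2a at 0.75. For Kdr they were Ubr1 at 0.82, Nckipsd at 0.82 and Prr14l at 0.80, and for Flt4 Fam149a at 0.93, Usp22 at 0.92 and Vamp2 at 0.90. For Tek they were Abhd4 at 0.90, Cops3 at 0.87 and Fntb at 0.87, for Angpt2 Alg6 at 0.86, Fam171a1 at 0.86 and Cyp4b1 at 0.85, and for Vegfa Grrp1 and Fbxw11, both at 0.94.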

How the data were processed

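RNA from sorted lung endothelial cells was made into libraries with the SMARTer Ultra Low kit, per the labels' protocols. The submitters' processing notes name STAR, DESeq2 and the build mm10; versions, the annotation and the transcript lengths are not given in the sources used here. The authors deposited RPKM values per library, and, in the same table, log2 fold changes and adjusted p-values of their own per time point. The table keeps no counts. Depth was estimated from the steps of low RPKM values, at about 93.4 to 152.1 megareads per library. Only 424 of 4296 low entries came out whole (to 0.1 read) in each library, which ended the attempt to rebuild counts.

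Values were log2(RPKM + 1), and tests used limma 3.58.1 in R 4.3.3 with an intensity trend, fitted to all 16 libraries with no covariate (12 residual degrees of freedom), two-sided, with Benjamini-Hochberg adjustment within each of 6 comparisons over 14303 entries. The fit was tested on simulated data. Summaries used Python 3.11.15 with pandas 2.3.3. Loci are from GENCODE M21 on mm10. No column of per-sample values was left out. The 10 genes, lists and rules were chosen with earlier results of these data known. In each pathway list and comparison, up to 4 passing genes with the smallest p are named, and for each of the 10 genes the 3 entries of at least 2 RPKM most alike within groups; 1 such entry is not reported here. Alternatives were a pseudocount of 0.1, no filter, 3 scalings, only the groups compared, array weights, length and GC trend removal, a replicate block, and leaving out each library.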

Additional observations from a re-analysis of the deposited data

Results flagged for a closer look

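Tek in d36 replicate 1 was set apart by Dixon's criterion. It measured 310 RPKM there, and 248 to 255 RPKM in the other 3 libraries at d36. This library's title names day 29 while its time point label is d36. Of 40 pairs of gene and time point examined, 1 was singled out, and the criterion alone singles out about 1 in 20 such groups.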

How the results depend on the processing

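The count of all entries passing varied more than the directions of the 10 genes. Going through the comparisons d15 with d0, d22 with d0, d36 with d0, d22 with d15, d36 with d22 and d36 with d15, the main counts of entries were 169, 2173, 3430, 437, 1688 and 1645, and those of the 10 genes 0, 1, 5, 1, 2 and 3. With only the groups compared, 478, 3249, 2052, 792, 416 and 401 entries and 2, 4, 2, 1, 1 and 1 of the 10 genes passed. With array weights, 737, 3945, 5686, 1281, 4017 and 2858 entries and 3, 4, 5, 1, 3 and 4 of the 10 passed. With an equal sum of RPKM, 320 entries passed at d15 with d0 and 704 at d22 with d15, and 2 of the 10 at d22 with d0. With quantile normalization, 3 of the 10 passed at d36 with d0. With the length and GC trend removed, 731 entries passed at d22 with d0 and 95 at d22 with d15, but only 76.3% of entries have these values, so that count is void; over the same entries with no trend removed, a comparison chosen after seeing the data, the count at d22 with d15 was 266. The equal-sum scaling moved the median of all entries by -0.11 at d36 with d0 and by -0.15 at d36 with d22.

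The 9 pairs of same-numbered libraries had correlations of -0.111 to 0.216 (median 0.044), as deviations from the group means. The 87 other pairs had -0.358 to 0.354 (median -0.023). So few pairs cannot settle whether the replicate numbers mark samples handled together. With a replicate block, 102, 1293, 1134, 735, 502 and 465 entries and 0, 3, 3, 3, 1 and 1 of the 10 genes passed. With the block and the length and GC trend removed, 78, 419, 913, 240, 551 and 472 entries and 0, 3, 4, 2, 1 and 1 passed.

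Leaving out a library gave 24 to 89 entries at d15 with d0, 1177 to 1791 at d22 with d0, 2426 to 5013 at d36 with d0, 136 to 494 at d22 with d15, 872 to 3771 at d36 with d22 and 897 to 2975 at d36 with d15. The 10 genes gave 0 to 0, 0 to 2, 3 to 5, 1 to 1, 1 to 2 and 2 to 4. All 8 counts of entries at d15 with d0 were below the count with all libraries, and the highest counts of entries at d36 came without d36 replicate 9.

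Signs turned only for differences that had not passed. Nrp1 at d15 was 0.0106 with median-ratio factors, 0.0087 with array weights, 0.0279 with quantile normalization, 0.31 with the block and 0.29 with block and trend removal. Pgf at d22 was -0.0655 with quantile normalization and -0.0583 with array weights. With the block, Vegfa at d36 was -0.21, Tek 0.0924 and Angpt2 0.0912. With block and trend removal, Tek at d15 was -0.037 and at d22 -0.10, and Vegfa at d36 was -0.002. Leaving out a library turned the sign in some fits for Nrp1 at d15 (-0.13 to 0.13), Angpt2 at d15 (-0.26 to 0.17) and Pgf at d22 (-0.12 to 0.22). With the block alone, adjusted p was 0.545 for Flt1 at d36 (0.44), 0.123 for Tie1 at d36 with d0 (-0.57), 0.553 with d22 (-0.31) and 0.665 with d15 (-0.25), 0.0903 for Flt4 at d36 with d15 (-0.99) and 0.0675 for Pgf at d36 with d22 (1.47), all past the threshold in the fit without it. With block and trend removal these were 0.706, 0.268, 0.742, 0.88, 0.0978 and 0.0641, and Nrp2 at d22 had 0.107. Angpt2 at d22 passed with the block at -1.09 (0.00668) and with block and trend removal at -1.21 (0.0078), and Nrp1 at d22 at 0.72 (0.00761) and 0.67 (0.0125). Kdr passed with block and trend removal at d22 (0.0321) and d36 (0.0493). The causes were not tested. Calls won or lost under the other alternatives stand beside each gene.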
